A study of Mus musculus with 19 samples.

Results

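The genes described here are 49 genes of DNA replication and mitosis, taken by gene name from a count table of 54532 mouse genes, in which each of the 49 had 1 row. They were read in 19 obstructed kidneys and sorted by textbook function into 10 roles, from the cyclins that open the cell cycle to the motors that divide the cell. All 49 were detected in every kidney, with at least 10 counts in each, so no member was lost to a filter on low counts in any comparison. Summed, they made up 0.0672% to 0.134% of a kidney's counts.

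Resting cells keep these genes at a low level. When a cell enters the cycle, cyclin D and cyclin E with their kinases release E2F factors, and E2F factors switch on the genes of DNA synthesis, such as the MCM helicase and the enzymes that supply nucleotides. Later in the cycle B-MYB (the protein of Mybl2) and FOXM1 switch on the genes of mitosis, many of which carry a short promoter element called CHR. Adult kidney epithelium divides rarely, and after ureteral obstruction tubule cells, fibroblasts and immune cells can all enter the cycle. In RNA from a whole kidney, fewer cycling cells and less of this RNA per cycling cell cannot be told apart.

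All 19 mice were males of 8 to 9 weeks on a C57BL/6J background, and in all of them the left ureter had been tied and cut (unilateral ureteral obstruction, UUO) 12 days before the kidney was perfused with heparin and taken. They were either WT or CD5L KO, that is, with or without the gene for CD5L, a circulating protein made by macrophages that is also called AIM. Mice of each genotype were treated with either recombinant CD5L protein (rCD5L) or its vehicle, PBS, by the intraperitoneal route once a day, and the dose of rCD5L was 0.5 mg. The groups were WT given PBS (n = 5), WT given rCD5L (n = 5), CD5L KO given PBS (n = 4) and CD5L KO given rCD5L (n = 5). No kidney without obstruction was analysed here, so every level is a level in an injured organ. The knockout is known from its label alone, which names neither the allele nor a cell type. Cd5l was at 0 counts in all 9 CD5L KO kidneys and had 3 to 15 counts in each of the 10 WT kidneys. With 3 counts taken as a limit for a reading of 0, the CD5L KO kidneys had at most 0.230 CPM (counts scaled to a common library size). The lowest WT kidney had as many counts as that limit, so a reading of 0 in a single kidney does not separate the genotypes.

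Promoters of cell cycle genes are known for a few short sequence elements, which were searched in those of the members. In the RefSeq promoter table for GRCm38.p6, which gives 250 bases before and 50 after a gene's start, 38 of the 49 members had an entry. Of the 32851 promoters listed, only the first of each gene was kept, for members and for all genes. Other starts of a gene were not searched. The CHR element TTTGAA, searched on both strands, was in 17 of the 38 (44.7%) and in 18.1% of the 27025 promoters kept. Its variant TTCGAA was in 4 of them (10.5%, against 1.57%), and CCAAT was in 29 (76.3%, against 37.9%). E2F elements of the form TTCCCGC were in 6 (15.8%, against 4.66%) and those of the form TTGGCGC in 7 (18.4%, against 2.54%). All 19 member promoters with either CHR form also held CCAAT, a pair found in 7.70% of all promoters kept. The elements were spread unevenly over the roles. Either CHR form was in 15 of the 20 promoters from the 4 roles of mitosis and in 2 of the 12 from the 3 roles of replication, whereas either E2F form was in 2 of those 20 and in 7 of those 12. Of the 38 promoters, 8 held none of the elements (Birc5, Ccne1, E2f1, Melk, Mybl2, Nusap1, Tk1 and Tyms). Such matches are letters in a window and not measured binding.

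The 150 bases before the start of 4 members are shown, on the strand of each gene and 5′ to 3′, with the searched elements in capitals in either orientation. Mki67 and Top2a, which mark cells in division, carry CHR elements. Rrm2 and Mcm3, the members with the lowest adjusted p-values in the CD5L KO kidneys given PBS, carry CCAAT alone in this stretch. In the full window of 300 bases Mcm3 also holds both E2F forms, outside the stretch shown.
Mki67, chr7:135716380-135716529, minus strand: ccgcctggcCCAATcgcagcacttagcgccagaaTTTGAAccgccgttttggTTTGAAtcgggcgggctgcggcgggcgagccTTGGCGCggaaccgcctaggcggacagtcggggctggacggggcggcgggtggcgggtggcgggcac
Top2a, chr11:99024190-99024339, minus strand: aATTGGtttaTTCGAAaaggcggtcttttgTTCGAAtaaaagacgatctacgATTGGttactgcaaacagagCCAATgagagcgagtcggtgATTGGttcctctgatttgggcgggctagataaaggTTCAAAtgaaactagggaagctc
Rrm2, chr12:24708104-24708253, plus strand: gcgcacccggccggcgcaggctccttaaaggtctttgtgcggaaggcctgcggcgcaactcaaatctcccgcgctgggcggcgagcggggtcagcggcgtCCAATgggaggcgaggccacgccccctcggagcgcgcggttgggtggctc
Mcm3, chr1:20820313-20820462, minus strand: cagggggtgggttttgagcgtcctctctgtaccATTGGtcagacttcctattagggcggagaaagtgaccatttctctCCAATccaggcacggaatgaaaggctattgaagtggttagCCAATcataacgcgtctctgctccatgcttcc
The Mki67 stretch holds a CCAAT element, a pair of CHR elements and an E2F element of the second form. The Top2a stretch holds the CHR variant and several CCAAT elements, some on the other strand, and the CHR element nearest to its start is also on the other strand.

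Before any comparison, 2 kidneys stood apart from the rest, both of them CD5L KO kidneys given rCD5L. Total counts ran from 17917491 to 23847090 over the 19 kidneys and did not set these apart. Their normalization factors did, at 0.68 in replicate 4 and 0.87 in replicate 3, against 0.97 to 1.07 in the other kidneys. Replicate 4 had a summed level of 57795 CPM over 10 proximal tubule markers, against 3279 to 9654 CPM in the other 18 kidneys. It was also lowest in the summed markers of macrophages (756 CPM, against 1906 to 3096), fibroblasts and myofibroblasts (1598 CPM, against 3052 to 6727) and injured tubules (10382 CPM, against 14735 to 28350). Replicate 3 differed by the GC content of genes. Over all genes, the rank correlation between a gene's deviation from its mean and the GC content of its longest transcript was 0.573 in replicate 3 and between -0.264 and 0.125 in the other 18 kidneys, a description across 18439 genes that share a library.

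The members split along the same line. Their transcripts were divided at the median GC content into 24 of higher and 25 of lower GC. In replicate 3 the higher-GC members lay 0.60 above their mean over all kidneys on the log2 scale and the lower-GC members 0.15 above it. The gap of 0.45 compares with gaps of -0.13 to 0.17 in the other kidneys. Plk1, the kinase that drives several steps of mitosis, stood at 18.4 CPM in replicate 3 and at 4.50 to 11.1 CPM elsewhere. Cdc20, the activator of the ubiquitin ligase that starts anaphase, stood at 25.5 CPM there and at 6.51 to 16.3 CPM elsewhere. Mki67, by contrast, was at 39.9 CPM in replicate 3, inside the range of its group. The part of GC content in the level of the members in this kidney was not tested beyond the offset fits given with the results.

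**Figure D1:**
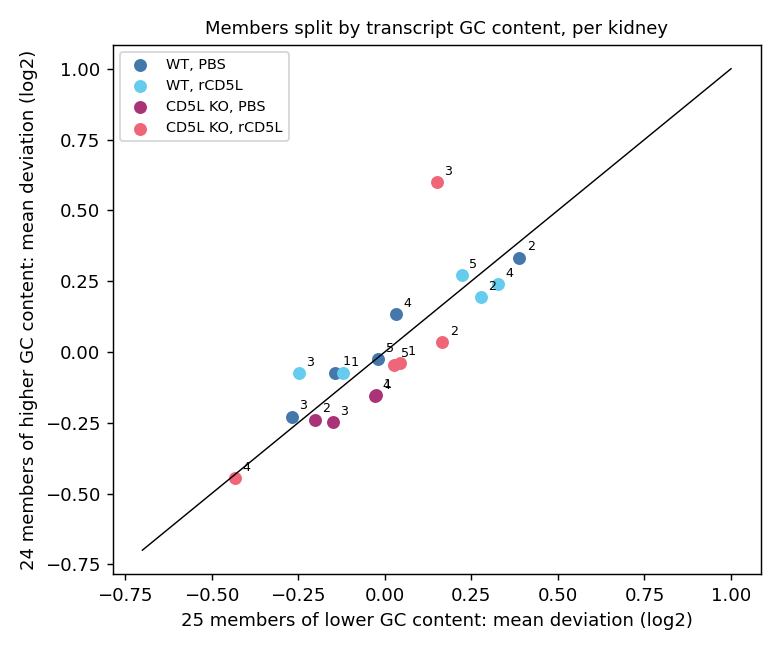
Each point is a kidney, placed by the mean deviation (log2) of the 25 members of lower GC content on the horizontal axis and of the 24 members of higher GC content on the vertical axis, with the line of equality and the replicate number beside it. CD5L KO rCD5L replicate 3 is far above the line (0.60 against 0.15), and replicate 4 is lowest on both axes.

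Levels per length, as the FPKM values deposited by the authors, spanned a wide range among the members. Over the 19 kidneys the mean ran from 0.660 FPKM for Cdc25c, a phosphatase of mitotic entry, to 33.0 FPKM for Stmn1, which destabilizes microtubules. Pcna, the sliding clamp of the replication fork, followed at 32.5 FPKM. Both also serve outside division, Stmn1 in microtubule turnover and Pcna in DNA repair. Ccnd1, the cyclin that answers growth factors, was at 15.1 FPKM, and Mcm7, the helicase subunit with the highest level, at 11.9 FPKM. The other leading members of their roles were lower: Ccnb2, a partner of CDK1, at 5.85 FPKM, Cdc20 at 5.18 FPKM, Rrm2, the regulated subunit of ribonucleotide reductase, at 5.16 FPKM, and Top2a, which untangles DNA, at 4.20 FPKM. Birc5, of the chromosomal passenger complex, led the centromere genes at 2.40 FPKM, and Foxm1 was at 1.47 FPKM, above Mybl2, the other gene of its role. The members thus lay between the 56.0th and the 96.0th percentile of genes with an FPKM above 0. Summed over all genes, FPKM was 479685 in CD5L KO rCD5L replicate 4 and 394445 in replicate 3. It was 254753 to 316508 in the other kidneys, and all kidneys enter the means above.

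The mean of the members (log2 CPM, prior count of 2) gives 1 value for each kidney. In WT mice given PBS it was 3.79, 4.26, 3.65, 3.98 and 3.87 in replicates 1 to 5. In WT mice given rCD5L it was 3.80, 4.13, 3.73, 4.18 and 4.14. CD5L KO mice given PBS had 3.81, 3.67, 3.70 and 3.80. The last group, CD5L KO given rCD5L, had 3.90, 3.996, 4.26, 3.46 and 3.89. All 4 groups overlapped. The group means ± SD were 3.91 ± 0.23 (n = 5), 3.995 ± 0.21 (n = 5), 3.74 ± 0.070 (n = 4) and 3.90 ± 0.29 (n = 5) in that order. The CD5L KO kidneys given PBS lay closest together, and the kidneys given rCD5L in CD5L KO mice lay farthest apart, with replicates 3 and 4 at the ends.

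**Figure D2:**
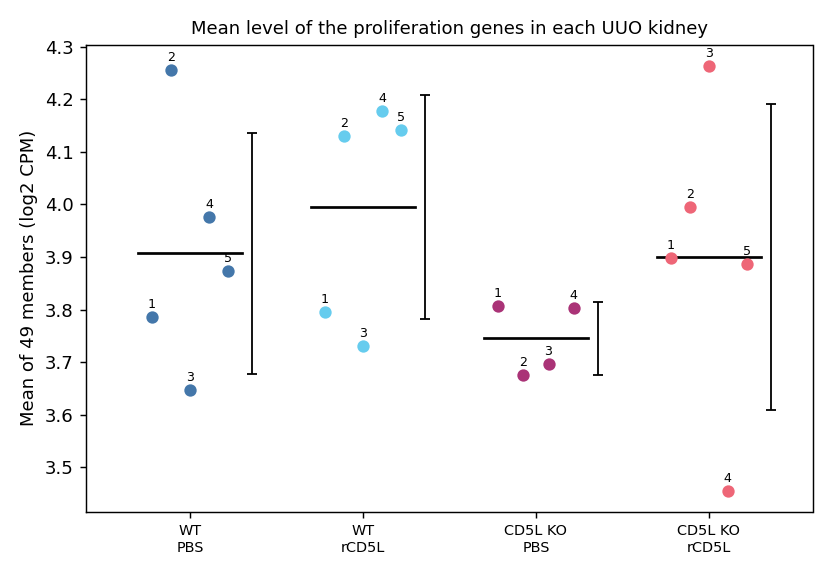
Mean level of the 49 members (log2 CPM, vertical axis) in each UUO kidney by group, with the replicate number above each point, the group mean as a line and the SD as a bar. The 4 CD5L KO kidneys given PBS sit between 3.67 and 3.81, and the 5 CD5L KO kidneys given rCD5L between 3.46 and 4.26.

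Kidneys differed from each other across most members at once. WT PBS replicate 2 was the highest of its group in 42 of 49 members, and WT PBS replicate 3 the lowest in 31. CD5L KO rCD5L replicate 4 was the lowest of its group in 40 members and the lowest of all 19 kidneys in 26, whereas replicate 3 was the highest of all 19 in 21. The WT kidneys given rCD5L fell into replicates 2, 4 and 5 at 4.13 to 4.18 and replicates 1 and 3 at 3.80 and 3.73, with nothing between. A few members went against their kidney. In CD5L KO rCD5L replicate 4, Ccnd1 was at 222 CPM against 62.4 to 97.8 CPM in the other 18 kidneys, and Tyms, the enzyme that makes thymidylate, was at 28.7 CPM against 18.6 to 20.3 CPM in the rest of its group. Mki67 was at 28.1 CPM in the same kidney, the lowest of all 19.

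**Figure D3:**
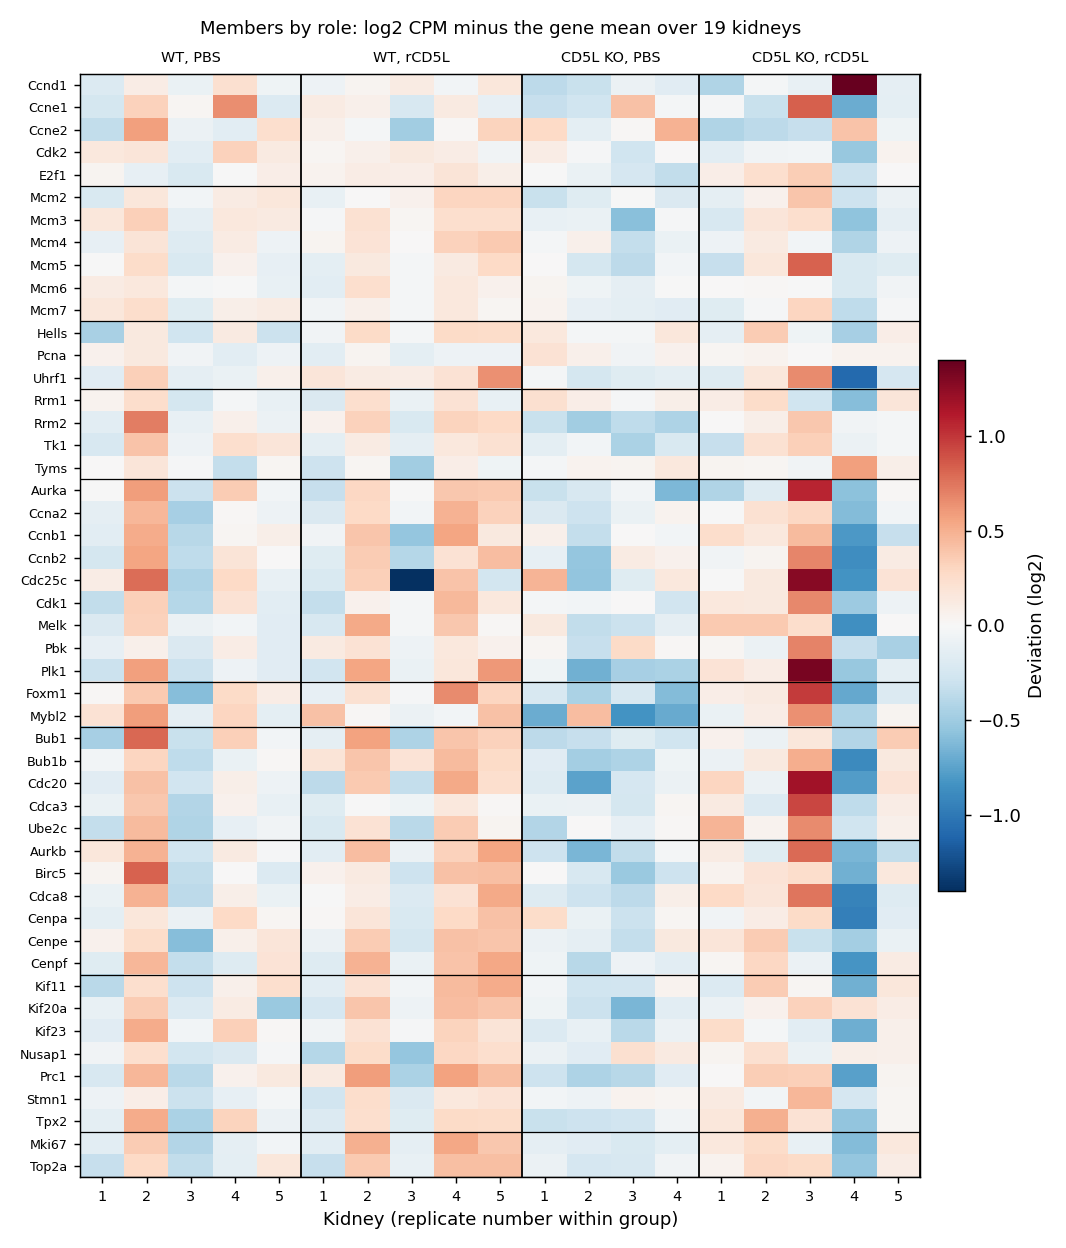
Deviation of each of the 49 members (rows, in blocks by role) from its mean over 19 kidneys, in log2 CPM (colour), for each kidney (columns, by group and replicate number). WT PBS replicate 2 is above the mean in most rows, CD5L KO rCD5L replicate 4 is below it in most rows except Ccnd1, Tyms, Ccne2, Kif20a, Nusap1 and Pcna, and replicate 3 is high in only part of the rows.

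The first comparison, CD5L KO against WT with both given PBS, asks what the lack of CD5L does to these genes in an obstructed kidney. Of the 49 members, 41 were lower in the CD5L KO kidneys, with a median log2 fold change of -0.17, beside -0.00 over all 17579 genes tested. None passed the test (edgeR's quasi-likelihood test, adjusted p under 0.05), where 10.5% of all genes did. With all 19 kidneys in 1 fit only 12 genes (0.0650%) passed, no member among them, and DESeq2 called 1 member among 2622 genes (14.9%). At an unadjusted p under 0.05, 11 members were lower and none was higher, beside a background of 14% of genes lower by that rule. Lower fold changes whatever their p made up 50.7% of all genes tested. The member values in the 2 groups failed to overlap for 1 member, Rrm2, where 7.21% of all genes were lower without overlap.

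Rrm2 was the member nearest to the threshold. It stood at 13.8, 12.2, 13.3 and 12.6 CPM in the CD5L KO kidneys and at 15.5, 28.1, 15.9, 18.05 and 16.2 CPM in the WT kidneys. Every CD5L KO kidney was below every WT kidney. The log2 fold change was -0.54 (SE 0.16, adjusted p = 0.0553). Without WT PBS replicate 2, which is far above the other WT kidneys, it was -0.34 with an adjusted p of 0.0441. Tk1, the salvage kinase for thymidine, was at 16.8, 18.01, 13.6 and 15.9 CPM against 15.8, 24.5, 17.6, 21.8 and 20.8 CPM, a log2 fold change of -0.33 (SE 0.13, adjusted p = 0.126). The groups overlapped there, and the remaining pair of nucleotide genes, Rrm1 and Tyms, had log2 fold changes of 0.10 and 0.07.

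All 6 subunits of the MCM helicase, the ring that unwinds DNA ahead of the fork, were lower, with log2 fold changes from -0.33 to -0.08. Mcm3 had the largest of them. Its CPM were 25.9, 26.0, 18.4 and 27.3 in CD5L KO kidneys and 30.9, 35.1, 25.4, 30.8 and 30.2 in WT kidneys, so that WT replicate 3 lay within the CD5L KO range. The log2 fold change was -0.33 (SE 0.12, adjusted p = 0.0992). Ccnd1 was at 65.2, 67.6, 79.1 and 75.2 CPM against 73.4, 90.0, 78.9, 97.8 and 80.6 CPM, with overlap, and its log2 fold change was -0.24 (SE 0.087, adjusted p = 0.104). The genes of the fork and of DNA methylation upkeep did not share this direction: Hells, a chromatin remodeler, was at 0.20 and Pcna at 0.08, while Uhrf1, which brings the maintenance methylase to new DNA, was at -0.17.

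Mybl2 had the largest difference of any member, at 2.35, 5.24, 2.13 and 2.33 CPM in CD5L KO kidneys and 4.47, 5.87, 3.55, 4.78 and 3.50 CPM in WT kidneys. Replicate 2 was the only CD5L KO kidney within the WT range. The log2 fold change was -0.56 (adjusted p = 0.222), and without that kidney it was -0.97 (adjusted p = 0.0260). Aurkb, the kinase of the passenger complex, was at 5.51, 4.29, 5.31 and 6.62 CPM against 7.57, 9.49, 5.53, 7.36 and 6.68 CPM, a log2 fold change of -0.44 (SE 0.17, adjusted p = 0.124). Foxm1 was at 8.44, 7.27, 8.45 and 6.46 CPM against 10.001, 12.7, 6.53, 11.9 and 10.6 CPM, also at -0.44 (SE 0.18, adjusted p = 0.129). In both genes WT replicate 3 was as low as the CD5L KO kidneys and the groups overlapped. The usual proliferation markers differed little. Mki67 was at 39.5, 38.7, 37.1 and 39.1 CPM against 39.0, 55.0, 32.5, 39.6 and 42.1 CPM, a log2 fold change of -0.12 (SE 0.12, adjusted p = 0.578). Top2a was at 42.9, 38.5, 38.7 and 43.7 CPM against 36.2, 55.2, 35.8, 41.1 and 50.6 CPM, a log2 fold change of -0.11 (SE 0.12, adjusted p = 0.640). For both genes all 4 CD5L KO kidneys lay within the WT range.

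How far the members lay below WT depended on WT PBS replicate 2. Without it, 34 of 49 members were lower, the median was -0.07, and 3 members (Rrm2, Mcm3 and Ccnd1) were lower at an unadjusted p under 0.05, beside backgrounds of 50.8% and 12% of genes. Cell type markers differed between the same groups. Of the 9 fibroblast and myofibroblast markers, 6 were called lower in the CD5L KO kidneys (Col3a1, Acta2, Col1a1, Col1a2, Pdgfra and Pdgfrb, with a median of -0.50 over the 9), and their summed level was 3155 to 4328 CPM there against 4478 to 6727 CPM in WT. Of the 6 endothelial markers, 3 (Cdh5, Pecam1 and Plvap) were called lower (595 to 664 CPM against 712 to 793 CPM). All 8 injured tubule markers had fold changes above 0 and 1, Spp1, was called (23133 to 28350 CPM against 14735 to 20763 CPM). Macrophage markers summed to 1906 to 3096 CPM against 2061 to 2687 CPM, with Ccr2 called higher and Csf1r lower. All 6 urothelium markers had fold changes above 0 (median 0.77) with none called, and their sum did not overlap (186 to 313 CPM against 25.1 to 182 CPM). The part of these markers in the levels of the members was not tested.

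The libraries of these groups also differed by gene length. The rank correlation between a gene's deviation from its mean and its length was -0.22 to -0.12 in the 4 CD5L KO kidneys given PBS and -0.02 to 0.19 in the 5 WT kidneys given PBS, without overlap. It was -0.17 to 0.01 in CD5L KO and 0.18 to 0.25 in WT among the kidneys given rCD5L, again without overlap. With gene length as an offset, the median of the members in CD5L KO against WT given PBS was -0.16 and no member was called, where 7.42% of all genes were.

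**Figure D4:**
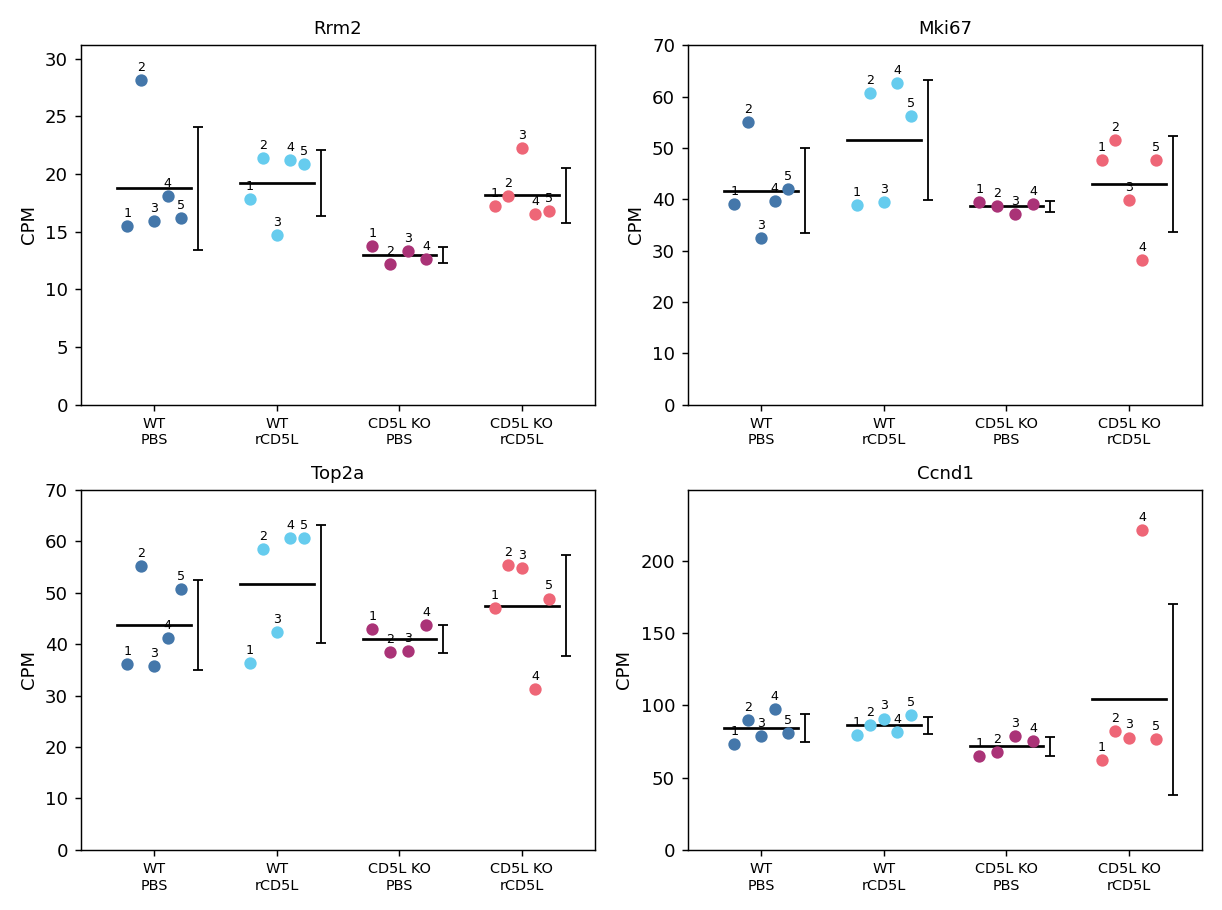
CPM of Rrm2, Mki67, Top2a and Ccnd1 (vertical axes from 0) in each kidney by group, with replicate numbers, group means (lines) and SD (bars). The 4 CD5L KO kidneys given PBS are below every other kidney for Rrm2 but within the range of the others for Mki67 and Top2a, and Ccnd1 has a single kidney at 222 CPM.

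Other cell cycle genes, from lists of genes that are no members, were read in the same fit. Of 56 other mitosis genes, 40 were lower in CD5L KO kidneys given PBS (median -0.12), and 3 were called, a smaller share than the 10.5% of all genes. Hjurp, the chaperone of the centromere histone, was lower at a log2 fold change of -0.46 (SE 0.10, adjusted p = 0.0162), and Ncapd2, a condensin subunit, at -0.37 (SE 0.097, adjusted p = 0.0313). Cks2, which binds cyclin-dependent kinases, was higher at 0.37 (SE 0.096, adjusted p = 0.0303). Of the 33 other replication genes 14 were lower and 19 higher (median 0.06), where 50.7% of all genes were lower. Of these, Rfc4, a loader of the Pcna clamp, was called higher at 0.47 (SE 0.11, adjusted p = 0.0219), and Prim1, a primase subunit, at 0.33 (SE 0.083, adjusted p = 0.0261). No gene was called among 17 of the E2F, pocket protein and MuvB groups or among 8 further G1 cyclins and kinases.

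The CDK inhibitors act against the members, and 2 of the 7 were called, where 10.5% of all genes were. Cdkn1b, which encodes p27, was at 85.1, 83.3, 78.1 and 81.2 CPM in CD5L KO kidneys given PBS and at 97.8, 90.3, 94.9, 105 and 93.4 CPM in WT kidneys given PBS, with no overlap, and a log2 fold change of -0.24 (SE 0.056, adjusted p = 0.0191). Cdkn2c was higher in CD5L KO kidneys, at 0.27 (SE 0.074, adjusted p = 0.0386). The others did not pass the test in this comparison. Cdkn1a, the p53 target that encodes p21, had -0.27 (adjusted p = 0.174), Cdkn2a -0.66 (adjusted p = 0.284), Cdkn2d -0.04, Cdkn2b 0.09 and Cdkn1c 0.10.

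The second comparison, rCD5L against PBS in CD5L KO mice, asks whether giving the missing protein moves these genes. No gene of 17467 passed edgeR's test (0%), and 502 had an unadjusted p under 0.05. DESeq2 called 10 genes and no member. Of the 49 members, 41 were higher in the kidneys given rCD5L, with a median log2 fold change of 0.17 beside 0.02 over all genes, where 53.5% of all genes were higher. At an unadjusted p under 0.05, 2 members were higher, beside 1.4% of all genes. The CD5L KO kidneys given PBS enter this comparison and the first, so a member that happened to be low in them is low in both.

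Rrm2 again separated the groups, and it was the only member to do so, where 1.17% of all genes were higher without overlap. It stood at 17.2, 18.1, 22.3, 16.5 and 16.8 CPM in the kidneys given rCD5L and at 12.2 to 13.8 CPM in those given PBS. The log2 fold change was 0.47 (SE 0.13, unadjusted p = 0.00399, adjusted p = 0.897). Kif20a, a motor of the spindle midzone, was at 8.10, 8.98, 10.8, 9.89 and 9.23 CPM against 8.21, 6.97, 5.47 and 7.75 CPM, a log2 fold change of 0.39 (SE 0.17, adjusted p = 0.897). Only the lowest treated kidney overlapped with the controls for this gene.

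Plk1, Foxm1 and Cdc20 had larger fold changes, to which replicate 3 added. Plk1 was at 8.28, 7.78, 18.4, 4.98 and 6.61 CPM against 6.95, 4.50, 5.21 and 5.32 CPM, a log2 fold change of 0.73 (SE 0.35, adjusted p = 0.897). Foxm1 was at 10.5, 10.8, 19.6, 5.98 and 8.62 CPM against 6.46 to 8.45 CPM, at 0.53 (SE 0.29). Cdc20 was at 13.9, 10.6, 25.5, 6.51 and 12.9 CPM against 6.67 to 10.6 CPM, at 0.59 (SE 0.33). In each of these genes replicate 3 was far above the next kidney of its group and replicate 4 was lowest. Without replicate 3 alone the log2 fold changes of Plk1, Foxm1 and Cdc20 were 0.33, 0.23 and 0.26. Without replicate 4 alone they were 0.89, 0.69 and 0.77 in that order (adjusted p = 0.763 for each). Without both kidneys they were 0.46, 0.38 and 0.44 in that order (adjusted p = 0.447, 0.450 and 0.447). Ube2c, the ubiquitin-conjugating enzyme of mitotic exit, was at 15.5, 11.5, 17.6, 9.12 and 11.6 CPM against 8.30 to 11.3 CPM, at 0.34 (SE 0.20). These genes shared an adjusted p of 0.897.

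The proliferation markers overlapped between the groups. Mki67 was at 47.7, 51.6, 39.9, 28.1 and 47.6 CPM in kidneys given rCD5L and at 37.1 to 39.5 CPM in those given PBS, so that 4 of the 5 treated kidneys were above all controls and replicate 4 was below them. Its log2 fold change was 0.15 (SE 0.17, adjusted p = 0.906). It was 0.27 without replicate 4 (unadjusted p = 0.0209, adjusted p = 0.763) and 0.34 without replicates 3 and 4 (unadjusted p = 0.000335, adjusted p = 0.357). Top2a was at 47.1, 55.5, 54.8, 31.2 and 48.9 CPM against 38.5 to 43.7 CPM, at 0.21 (SE 0.16, adjusted p = 0.897), with the same kidney below the controls, and had 0.33 without replicate 4 (adjusted p = 0.763) and 0.31 without both (adjusted p = 0.397). Ccnd1, at 62.4, 82.2, 77.8, 222 and 76.9 CPM against 65.2 to 79.1 CPM, had a log2 fold change of 0.52 (SE 0.34, adjusted p = 0.897) that came from replicate 4. Every member of mitotic entry (9 of 9), of the spindle (7 of 7) and of the spindle checkpoint (5 of 5) was higher, where 53.5% of all genes were. By mean CPM without replicate 3, 5 of the 9, 6 of the 7 and all 5 were higher, and Ccnb1, Ccnb2, Cdc25c and Pbk of mitotic entry were then lower than with PBS. The 3 genes of the fork and DNA methylation upkeep had a median of -0.05.

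Cell type markers leaned between the same groups, none of them called. All 10 proximal tubule markers were higher with rCD5L (median log2 fold change 1.36, summed level 4230 to 57795 CPM against 3870 to 8365 CPM), as were all 8 of the distal nephron and collecting duct (0.48, 2329 to 5998 CPM against 2192 to 3344 CPM). Of the 8 injured tubule markers 7 were lower (-0.24, 10382 to 25759 CPM against 23133 to 28350 CPM), and so were all 6 of the urothelium (-0.50, 108 to 218 CPM against 186 to 313 CPM). Replicate 4 was the extreme kidney in the tubule markers. Without it the treated kidneys averaged 5851 CPM in proximal tubule markers against 5846 CPM with PBS, 2919 against 2639 CPM in distal nephron markers and 23545 against 25049 CPM in injured tubule markers, while urothelium markers averaged 177 against 231 CPM. All 4 epididymis markers that could be tested were higher, and the summed level of the listed markers did not overlap between the groups (23.3 to 60.4 CPM against 8.17 to 21.5 CPM, and a mean of 36.8 CPM in the treated kidneys without replicate 4). All 5 erythroid markers tested were lower (-0.54, 86.6 to 345 CPM against 203 to 408 CPM). The part of these markers in the members was not tested.

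Leaving out the kidneys that stood apart changed the counts. Without replicate 4, 44 of 49 members were higher with a median of 0.27, and at an unadjusted p under 0.05 16 were higher and 1, the cyclin gene Ccne2, was lower (-0.48). The backgrounds for higher were 51% and 2.92% of genes. Without replicates 3 and 4, which leaves 3 treated kidneys against 4 controls, 42 members were higher with a median of 0.16, and at an unadjusted p under 0.05 14 were higher and Ccne2 was lower (-0.46), beside 51% and 4.32% for higher. No gene at all was called in either fit, and the smallest adjusted p among members was 0.763 and 0.357. Without replicate 3 alone the median was 0.08 and 33 members were higher. With GC content as an offset, 43 members were higher and the median was 0.20. For the fit without replicate 3 alone and the fit with the offset, the share of all genes higher was not taken. Those counts of members stand without a background.

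In WT mice the question was whether rCD5L acts on top of the mouse's own CD5L. No gene of 17455 passed edgeR's test (0%), with 2797 at an unadjusted p under 0.05, and DESeq2 called 542 genes and no member. Of the members, 39 were higher in the kidneys given rCD5L, with a median log2 fold change of 0.09 beside 0.00 over all genes, where 51.3% were higher. The median was 0.22 without WT PBS replicate 2, the control with the highest mean level of the members, and 0.04 without WT PBS replicate 3, the lowest. At an unadjusted p under 0.05, 4 of the 49 members were higher, a share close to the background of 8.31% of genes. No member separated the groups, against 2.01% of all genes. All 7 T cell markers were higher as well (median 0.41, summed level 48.4 to 88.7 CPM against 34.5 to 76.0 CPM) and all 10 proximal tubule markers were lower (-0.48, 3279 to 5379 CPM against 4083 to 8599 CPM). All 5 erythroid markers tested (-0.65, 38.1 to 355 CPM against 219 to 496 CPM) and all 6 urothelium markers (-0.22, 54.2 to 204 CPM against 25.1 to 182 CPM) were lower, and all 4 epididymis markers tested were higher (0.75, 15.8 to 39.2 CPM against 11.7 to 24.1 CPM). None of these was called, and their part in the levels of the members was not tested.

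The 4 were Bub1b, Mcm4, Hells and Uhrf1. Bub1b, a kinase-like protein of the spindle checkpoint, was at 14.7, 17.1, 14.8, 17.6 and 15.7 CPM in kidneys given rCD5L and at 12.7, 16.0, 10.1, 12.2 and 13.1 CPM in those given PBS, where only replicate 2 reached the treated range. The log2 fold change was 0.33 (SE 0.11, adjusted p = 0.169). Mcm4 was at 31.4, 34.9, 30.7, 38.2 and 39.6 CPM against 28.1, 34.7, 27.0, 33.2 and 29.2 CPM, at 0.21 (SE 0.088, adjusted p = 0.263). Hells was at 9.39, 11.7, 9.50, 11.7 and 11.6 CPM against 7.04, 10.7, 7.99, 10.6 and 7.88 CPM, at 0.30 (SE 0.13, adjusted p = 0.286). The groups overlapped for both. Uhrf1, at 28.1, 27.0, 26.8, 28.6 and 39.0 CPM against 22.3, 31.3, 22.9, 23.4 and 26.1 CPM, had 0.26 (SE 0.12, adjusted p = 0.2999), with replicate 5 well above the rest of the treated kidneys. Its log2 fold change was 0.14 without that kidney and 0.35 without WT PBS replicate 2. E2f1, which switches on the genes of DNA synthesis, was at 9.47, 9.84, 9.75, 10.4 and 9.73 CPM against 9.38, 8.45, 7.90, 9.13 and 9.77 CPM, at 0.15 (SE 0.090, adjusted p = 0.442).

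Mki67 and Top2a followed the split among the treated WT kidneys. Mki67 was at 38.8, 60.8, 39.4, 62.7 and 56.1 CPM in kidneys given rCD5L and at 32.5 to 55.0 CPM in those given PBS. Replicates 2, 4 and 5 were above every control and replicates 1 and 3 were among them. The log2 fold change was 0.31 (SE 0.15, adjusted p = 0.330). Top2a was at 36.4, 58.6, 42.3, 60.6 and 60.7 CPM against 35.8 to 55.2 CPM, at 0.25 (SE 0.15, adjusted p = 0.457), with the same 3 kidneys above every control. Ccnd1 was at 79.5, 86.2, 90.9, 81.4 and 93.4 CPM against 73.4 to 97.8 CPM, at 0.05 (SE 0.074, adjusted p = 0.805).

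**Figure D5:**
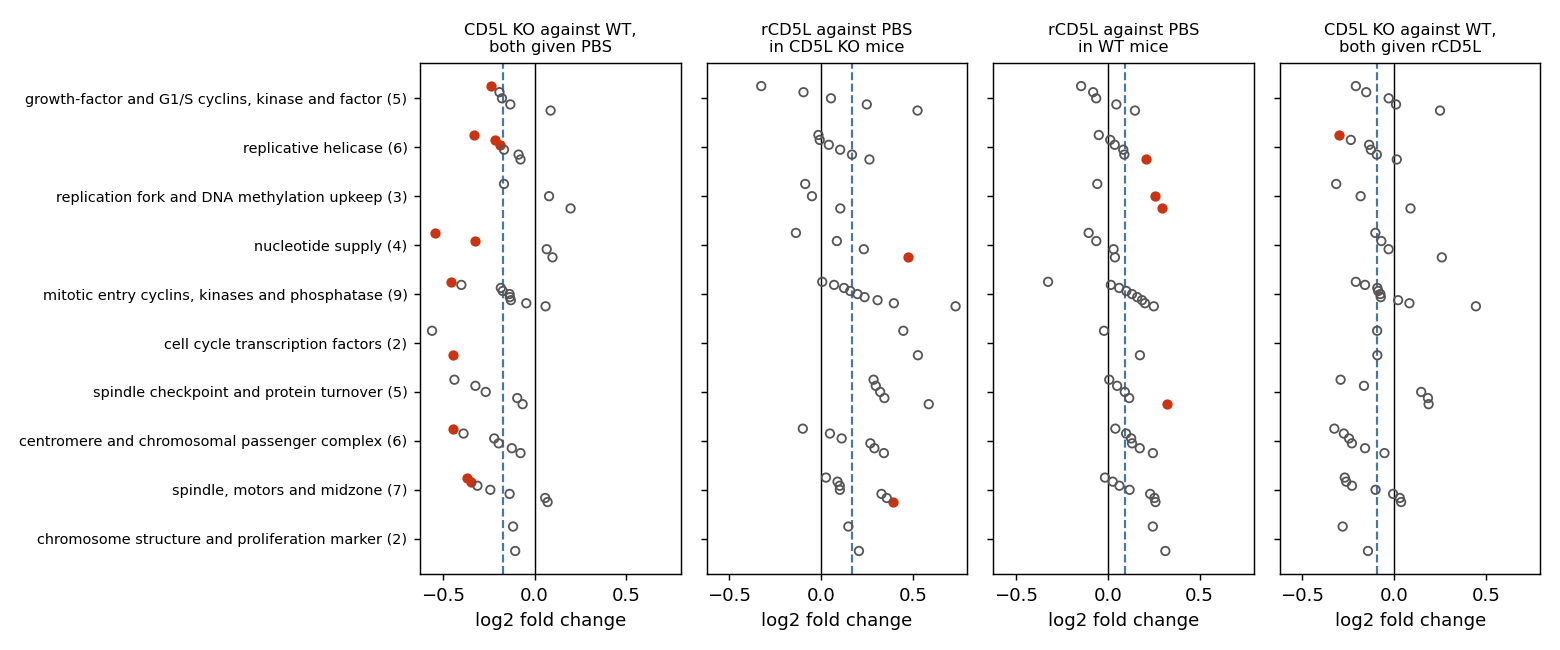
Log2 fold change of each of the 49 members (horizontal axes) by role (rows, number of members in brackets) in the 4 comparisons of groups, with filled red points for an unadjusted p under 0.05, open points for the rest, a solid line at 0 and a dashed line at the members' median. The medians are -0.17, 0.17, 0.09 and -0.09 from left to right, and the red points number 11, 2, 4 and 1.

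The comparison of CD5L KO with WT was repeated among the kidneys given rCD5L. No gene of 17360 passed edgeR's test (0%), with 3090 at an unadjusted p under 0.05, and DESeq2 called 150 genes and no member. Of the members, 36 were lower in CD5L KO kidneys, with a median of -0.09 beside -0.01 over all genes, where 51.1% were lower. Mcm4 was the only member at an unadjusted p under 0.05, beside 6.8% of genes lower by that rule, and no member separated the groups, beside 3.35%. Without CD5L KO rCD5L replicate 4 the median was -0.02, with 27 of 49 lower and 2 (Ccnd1 and Mcm4) lower at an unadjusted p under 0.05, beside 50.6% and 7.41% of genes. Without replicate 3 the median was -0.20. The number of genes called in this comparison depended on the fit: 1291 (7.00%) were called with all 19 kidneys in 1 fit and 644 (3.58%) without replicates 3 and 4, with no member among them.

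Markers again leaned with the groups, with none called. All 10 proximal tubule markers stood higher in the knockout (a median of 1.79 on the log2 scale, 4230 to 57795 CPM summed against 3279 to 5379 CPM). All 9 fibroblast and myofibroblast markers were lower (-0.44, 1598 to 6471 CPM against 4702 to 6512 CPM), as were all 9 macrophage markers (-0.30, 756 to 2801 CPM against 2333 to 2777 CPM) and all 7 T cell markers (-0.34, 18.2 to 65.4 CPM against 48.4 to 88.7 CPM). Without replicate 4 the CD5L KO kidneys averaged 5851 CPM in proximal tubule markers against 4104 CPM in WT, 4568 against 5760 CPM in fibroblast and myofibroblast markers, 56.3 against 62.9 CPM in T cell markers, and 2587 against 2542 CPM in macrophage markers, which is no longer lower. All 8 distal nephron and collecting duct markers (0.32, 2329 to 5998 CPM against 2724 to 3767 CPM) and all 6 urothelium markers (0.46, 108 to 218 CPM against 54.2 to 204 CPM) were higher in CD5L KO kidneys, and without replicate 4 their averages were 2919 against 3103 CPM and 177 against 120.4 CPM. Whether these markers bear on the members was not tested.

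Mcm4 was at 29.0, 33.3, 29.8, 22.8 and 29.1 CPM in CD5L KO kidneys and at 30.7 to 39.6 CPM in WT, which gave -0.30 on the log2 scale (SE 0.12, adjusted p = 0.260). Cdk2, the kinase of cyclin E, was at 29.7, 31.8, 31.8, 22.7 and 33.9 CPM against 31.7 to 35.96 CPM, at -0.21 (SE 0.12, adjusted p = 0.348). Mcm3 was at 23.7, 31.2, 32.8, 18.8 and 25.5 CPM against 27.4 to 32.7 CPM, at -0.24 (SE 0.15, adjusted p = 0.391). Replicate 4 was the lowest CD5L KO kidney in all 3. Cenpf, a large protein of the kinetochore, had the largest difference of any member in the lower direction, at 12.6, 15.1, 11.6, 6.90 and 13.3 CPM against 10.8 to 17.997 CPM, a log2 fold change of -0.33 (SE 0.22, adjusted p = 0.422). Tyms, at 19.7, 19.6, 18.6, 28.7 and 20.3 CPM against 13.7 to 20.5 CPM, had 0.26 (SE 0.16, adjusted p = 0.381), and replicate 4 was again apart, here as the highest. Mki67 had -0.28 (SE 0.19, adjusted p = 0.431), Top2a -0.14 (SE 0.18, adjusted p = 0.688) and Ccnd1 0.25 (SE 0.31, adjusted p = 0.668), which was -0.23 without replicate 4.

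Whether rCD5L acted differently in CD5L KO and WT mice was tested as an interaction over all 19 kidneys. No gene of 18454 passed edgeR's test (0%), with 1154 at an unadjusted p under 0.05, and DESeq2 called none. Of the members, 30 had an interaction above 0, that is, a larger log2 fold change in CD5L KO mice, with a median of 0.11 beside 0.02 over all genes, where 53% were above 0. None had an unadjusted p under 0.05, beside 4.41% of genes above 0 by that rule. The median was -0.01 without CD5L KO rCD5L replicate 3 and -0.00 without WT PBS replicate 2. Cell type markers leaned in this fit too, with none called. All 10 proximal tubule (median 1.88), all 8 distal nephron and collecting duct (0.44) and all 6 endothelial markers (0.13) were above 0. All 7 T cell (-0.49) and all 6 urothelium markers (-0.29) were below 0, and the other lists were mixed. Their part in the levels of the members was not tested.

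The smallest p among members was that of Rrm2, whose log2 fold change with rCD5L was 0.47 in the knockout and 0.04 in WT. Its interaction was 0.45 (SE 0.22, unadjusted p = 0.0558, adjusted p = 0.731). Leaving out 1 kidney moved it between 0.26 (without WT PBS replicate 2) and 0.51 (without WT PBS replicate 1). Hells went the other way, at -0.09 in the knockout and 0.30 in WT, with an interaction of -0.36 (SE 0.22, adjusted p = 0.731). Tk1 had 0.31 (SE 0.20, adjusted p = 0.731), Mybl2 0.49 (SE 0.36, adjusted p = 0.756) and Cdc20 0.49 (SE 0.39, adjusted p = 0.776). Ccnd1 had 0.50 (SE 0.35), Mki67 -0.15 (SE 0.24) and Top2a -0.02 (SE 0.24), with adjusted p of 0.745, 0.891 and 0.986. Without CD5L KO rCD5L replicate 4 the interaction of Ccnd1 was 0.01 and that of Cdc20 was 0.65. Without replicate 3 of that group Cdc20 had 0.16 and Mybl2 0.31, and Mybl2 had 0.89 without CD5L KO PBS replicate 2.

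Counting error differed among the members. Cdc25c had 10 to 75 counts in a kidney and Ccne1 28 to 133, so that a lowest count alone carried an error of 31.6% and 18.9%. In CD5L KO against WT given PBS, 3 of 49 members had a counting error at their lowest count above the common spread between kidneys, a biological coefficient of variation of 12.6%, and in WT mice given rCD5L or PBS 2 of 49 did (11.6%). Whether small differences in these members could be detected at this depth was not tested.

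Reads of some members could belong to neighbours or copies. The gene models of 14 of the 49 overlap a protein-coding gene, among them Ccnd1 (Oraov1, on the opposite strand), Tk1 (Afmid) and Mcm7 (Cops6 and Ap4m1), and whether counting used strand is not given in the sources used here. For 9 members the table also lists pseudogenes named or described for them, such as those of Pcna, Tyms, Ccnb1 and Cdc20, so the levels of these members are uncertain to that extent. Rrm2, Mcm3, Top2a and Mki67 have neither a protein-coding overlap nor a pseudogene listed for them.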

How the data were processed

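RNA of 19 whole kidneys was sequenced by the study from random-hexamer libraries as paired-end reads. Per the labels, the authors used Trimmomatic, HISAT2, featureCounts and DESeq2 with GRCm38 (mm10). Versions, strand and multimapping settings are not given in the sources used here. The deposited files hold raw counts per gene and FPKM per gene, both made by the authors, and neither pools kidneys.

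The 49 members and all gene lists were chosen with earlier results of these data known. Counts were fitted over the whole table with edgeR 4.0.16 in R 4.3.3 (quasi-likelihood test, TMM, minimum count of 10), with the 2 groups compared or, for the interaction, all 4, and Benjamini-Hochberg adjustment over all genes tested. Fitted fold changes are log2, and the SE is the log2 fold change divided by the square root of F. Levels per kidney are CPM normalized over all 19 kidneys. Full statistics were given for Mki67, Top2a, Ccnd1 and the called members of a comparison, filled up to the 6 with the smallest p, and genes of the other cell cycle lists were named when called. The fits by edgeR, by DESeq2 and with a gene length or GC content offset were run on simulated counts for the first and second comparisons. Other settings and steps were not. The fits were repeated with DESeq2 1.42.0, without the filter, with RLE factors, with all kidneys in 1 fit, with a replicate block, with gene length or GC content as an offset (lowess, span 0.3), and without single kidneys. The GC offset and leaving out 2 kidneys together were chosen after seeing the data, and GC content came from GENCODE transcripts, matched for 18439 of 18454 genes. The study's methods say that the groups took turns in surgery, injection and sample handling, that allocation was balanced but not formally randomized, and that the work was not blinded, and the labels name no batch. No 2 kidneys had identical counts, and the p-values measure the spread between mice. Promoter sequences are from RefSeq. Total counts of 17917491 to 23847090 and the count of each gene set the counting error, which was largest for the members with few counts.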

Additional observations from a re-analysis of the deposited data

Results flagged for a closer look

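A kidney far from the others of its group was looked for in 88 sets of values (22 measures in 4 groups) with Dixon's test at its 95% critical value, which chance passes in about 1 of 20 sets, and 9 passed. In CD5L KO kidneys given rCD5L, replicate 4 was highest in Ccnd1 at 222 CPM and in Tyms at 28.7 CPM, and replicate 3 was highest in Plk1 at 18.4 CPM and in Rrm2 at 22.3 CPM. In WT kidneys given PBS, replicate 2 was highest in Plk1 at 10.8 CPM and in Rrm2 at 28.1 CPM. In WT kidneys given rCD5L, replicate 5 was highest in Uhrf1 at 39.0 CPM. Among the CD5L KO kidneys given PBS, replicate 3 was lowest in Mcm3 at 18.4 CPM, and replicate 2 was highest in Mybl2 at 5.24 CPM.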

How the results depend on the processing

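For CD5L KO against WT with both given PBS, the number of members called was 0 and moved with the processing: DESeq2 called 1 (of 2622 genes called, 14.9% of those tested) and the fit with no filter 1 (of 1588, 5.03%), Rrm2 in both, and the count ran from 0 to 4 over the fits that leave out 1 kidney each, where 5.81% to 11.8% of all genes were called. Without WT PBS replicate 3 the 4 were Rrm2, Mcm3, Foxm1 and Mcm7, without WT PBS replicate 1 they were Rrm2 and Mcm2, without WT PBS replicate 2 Rrm2 alone, and without CD5L KO PBS replicate 2 Mybl2 alone. Kidneys with the same number did not pair (correlations of -0.187 to 0.174 over 27 pairs, and 2 kidneys nearest to their own number), so the replicate block, which called 3 members (Rrm2, Mcm3 and Mybl2) of 2132 genes (12.1%), shares only a number. With all 19 kidneys in 1 fit 12 genes were called instead of 1850, and the number ran from 1015 to 2062 when 1 kidney was left out. The cause was not tested. In the other comparisons no member was called by any alternative, but most of those fits called no gene at all. Among those that did, CD5L KO against WT given rCD5L went from 0 genes to 1291 (7.00%) with all 19 kidneys in 1 fit, 644 (3.58%) without CD5L KO rCD5L replicates 3 and 4, 150 (0.864%) with DESeq2 and 1 without CD5L KO rCD5L replicate 2. For rCD5L in WT mice DESeq2 called 542 genes (3.11%), the fit with no filter 137 (0.430%) and the fit without WT PBS replicate 1 39 (0.222%), and for rCD5L in CD5L KO mice DESeq2 called 10 (0.0573%).

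The median member fold change ranged, when 1 kidney was left out, from -0.24 to -0.07 in CD5L KO against WT given PBS, from 0.08 to 0.27 for rCD5L in CD5L KO mice, from 0.04 to 0.22 for rCD5L in WT mice and from -0.20 to -0.02 in CD5L KO against WT given rCD5L. The interaction ranged from -0.01 to 0.17. Single members with a sign that turned had values near 0, apart from Ccnd1. Leaving out 1 kidney moved Mki67 between -0.20 and 0.00 (0.00498) in CD5L KO against WT given PBS, Ccnd1 between -0.00 (-0.00188) and 0.11 for rCD5L in WT mice, Ccnd1 between -0.23 and 0.40 in CD5L KO against WT given rCD5L, and the interaction of Top2a between -0.13 and 0.084. Without CD5L KO rCD5L replicates 3 and 4, Ccnd1 was at -0.23 in CD5L KO against WT given rCD5L, and the interactions of Mki67 and Top2a were 0.035 and 0.064. With gene length as an offset Top2a was at 0.00 (0.00397) in CD5L KO against WT given rCD5L and its interaction was 0.034, and with GC content as an offset its interaction was 0.10. The cause was not tested for these. Of the recomputed counts, medians, group levels and fold changes, 933 were labelled as unchanged. Of the rest, 9 fold changes passed the threshold newly, 7 counts of members called moved and 16 fold changes turned in sign. For the fold change of a member with full statistics, unchanged meant the same direction and side of the threshold. For a count it meant a similar number. For a median or group level it meant a shift below the SD between kidneys of a group, so its sign could turn. The median of the interaction did so, at -0.01 without CD5L KO rCD5L replicate 3. Calls of Mybl2, Mcm2 and Mcm7, which had no full statistics in CD5L KO against WT given PBS, stand in the counts alone. Counting error was largest for the members with few counts, down to 10 in a kidney for Cdc25c.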
